A study of Mus musculus with 30 samples.

Results

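Meis1 and Adgrg1 are a pair of genes best known from blood stem cells, and their transcripts were followed here in mouse blood after cyclophosphamide, an alkylating drug toxic to dividing blood precursors. They were found by the gene symbols of the array's platform annotation, which gave 1 probe for each gene, 2 genes of the 9616 with a symbol on the array. They were selected on their levels in these samples, in particular their higher values 1 day after the drug. Their levels and differences are therefore described below without a test.

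The samples were leukocytes from peripheral blood of DBA/2 mice, an inbred strain: 4 from untreated mice, 4 drawn 1 day, 4 drawn 2 days and 3 drawn 5 days after 83 mg per kg cyclophosphamide given into the peritoneum. Every sample was hybridised against bone marrow cells of DBA/2 mice on 2-colour arrays. The labels call this marrow pool untreated in one field and name cyclophosphamide in another, and the age and sex of the mice are not given. Each value is the log2 ratio of the blood signal to the marrow signal, averaged over 2 technical replicates of a sample, so 0 means the same relative signal as in marrow and a difference of 1 between groups is a doubling. The base of the logarithm is not stated and was taken as 2. Blood was labelled with Cy5 and marrow with Cy3, so tissue and dye cannot be told apart in a value's distance from 0.

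Meis1 encodes a homeodomain transcription factor of the TALE class, which binds DNA together with Pbx and Hox proteins. In mice it is needed for blood stem cells and for the megakaryocyte lineage, whose cells release platelets. Adgrg1, also known as Gpr56, encodes an adhesion G protein-coupled receptor that signals through G12/13 proteins and the GTPase RhoA. It marks blood stem cells, and it is also found on human cytotoxic lymphocytes and on platelets, where it senses collagen.

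In GRCm38.p6, Meis1 (gene 17268) lies on the minus strand of chromosome 11, from 18880428 to 19019651, and Adgrg1 (gene 14766) on the plus strand of chromosome 8, from 94974756 to 95014208. The build used for the probes is not given, and the probes' own sequences are not shown. The promoters of both genes are shown because the 2 transcripts were both higher at day 1. RefSeq's GRCm38.p6 promoter windows run from 250 bases before to 50 bases after a start site, and both genes matched, Meis1 with 1 window and Adgrg1 with 2. Capitals mark the matches to 6 motifs searched on both strands, written 5′ to 3′: the MEIS site TGACAG, the PBX-HOX site TGATNNAT, the ETS core CCGGAA, the GATA core GATAA, the RUNX core TGTGGT and the E-box CAGNTG. No base belonged to matches of 2 motifs.
Meis1, chr11:19018920-19019219, minus strand: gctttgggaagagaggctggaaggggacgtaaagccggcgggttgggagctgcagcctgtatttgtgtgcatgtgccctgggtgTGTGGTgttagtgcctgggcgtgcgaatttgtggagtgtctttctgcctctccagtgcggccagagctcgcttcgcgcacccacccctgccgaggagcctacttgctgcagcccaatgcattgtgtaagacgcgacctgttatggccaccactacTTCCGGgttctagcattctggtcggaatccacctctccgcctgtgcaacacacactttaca
Adgrg1, upstream start site, chr8:94976859-94977158, plus strand: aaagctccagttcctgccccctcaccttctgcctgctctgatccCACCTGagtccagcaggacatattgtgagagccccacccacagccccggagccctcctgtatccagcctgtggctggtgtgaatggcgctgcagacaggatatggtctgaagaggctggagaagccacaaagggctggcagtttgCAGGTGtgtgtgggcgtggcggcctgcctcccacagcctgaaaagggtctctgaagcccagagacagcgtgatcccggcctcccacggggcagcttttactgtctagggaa
Adgrg1, downstream start site, chr8:94984149-94984448, plus strand: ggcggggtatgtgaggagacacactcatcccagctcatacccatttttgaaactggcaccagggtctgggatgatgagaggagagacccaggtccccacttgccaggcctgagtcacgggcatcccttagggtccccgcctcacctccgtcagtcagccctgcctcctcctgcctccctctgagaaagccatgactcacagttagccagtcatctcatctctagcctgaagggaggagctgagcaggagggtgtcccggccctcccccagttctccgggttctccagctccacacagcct

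The Meis1 window held a RUNX core at position -166 and, on the opposite strand, an ETS core at position -11 relative to the start site, counted to the first base of each match. The upstream Adgrg1 window held 2 E-boxes, and the downstream window held no match to any of the 6 motifs, which says only that these letters are absent from it. Of 32851 promoter windows of the same length, 16.8% held the RUNX core, 14.9% the ETS core and 51.4% the E-box. The MEIS, PBX-HOX and GATA motifs, found in 19.2%, 8.85% and 25.4% of all windows, were in none of the 3. The windows were alike in base composition, with 58.3% G and C for Meis1 and 60.7% for each Adgrg1 window. A match describes the sequence and does not show that a factor binds there.

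Of 13443 probes, 5314 to 9398 gave a value per array column, and both Meis1 and Adgrg1 had one in all 30 columns. Technical replicates correlated across probes with r between 0.829 and 0.957. The technical replicates of Meis1 differed by at most 0.24 log2 units and those of Adgrg1 by at most 0.28. The spread between samples of a group, pooled over the groups, was an SD of 0.24 for Meis1 and 0.28 for Adgrg1, against a median of 0.22 over the 6515 features tested. The number of arrays limits the precision of every value.

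Meis1 had a log2 ratio below 0 in 14 of the 15 samples. In untreated mice its log2 ratio was -0.64, -0.50, -0.98 and -1.07 in replicates 1 to 4. One day after the drug it was -0.12, -0.27, -0.024 and -0.22. Every day 1 sample was above every untreated sample, and the day 1 samples lay closest together of all groups.

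At day 2 the log2 ratio of Meis1 was -0.16, -0.69, 0.038 and -0.46 in replicates 1 to 4. The day 2 samples were the most spread: replicate 3 was above all day 1 samples, replicate 1 lay among them, replicate 4 was above all untreated samples by a narrow margin, and replicate 2 was within the untreated range. At day 5 it was -0.92, -0.79 and -0.54 in replicates 1 to 3, all within the range of the untreated samples and below every day 1 sample.

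Adgrg1 had a log2 ratio above 0 in 14 of the 15 samples. In untreated mice its log2 ratio was 0.13, 0.15, 0.38 and -0.39 in replicates 1 to 4, and replicate 4 was the only sample below 0. One day after the drug it was 1.34, 1.03, 0.62 and 1.22. All 4 day 1 samples were above all 4 untreated samples, and the lowest of them, replicate 3, was the highest of its group for Meis1.

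At day 2 the log2 ratio of Adgrg1 was 0.18, 0.54, 0.64 and 0.59 in replicates 1 to 4. Replicate 1 was within the untreated range, and the other day 2 samples were above it. At day 5 it was 0.64, 0.32 and 0.74 in replicates 1 to 3, with replicate 2 inside the untreated range and the other 2 above it.

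**Figure D1:**
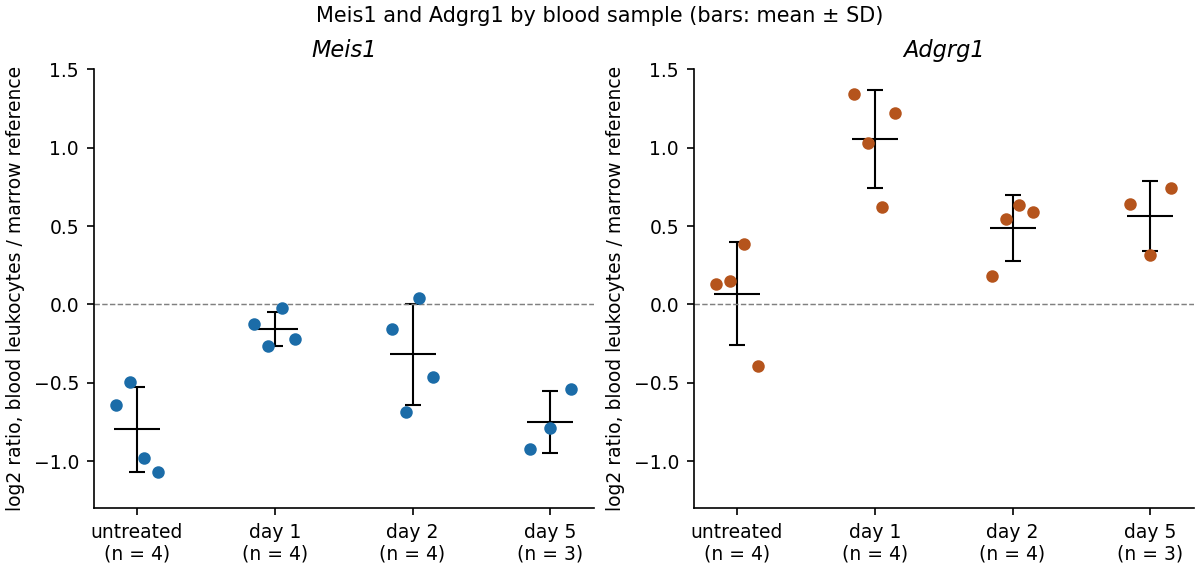
Log2 ratio of blood leukocytes over the marrow reference (vertical axis) for Meis1 and Adgrg1 in untreated mice and 1, 2 and 5 days after cyclophosphamide. Points are blood samples and bars the mean ± SD; for both genes the 4 day 1 samples lie above the 4 untreated samples, and at day 5 Meis1 is back in the untreated range (mean -0.75) while Adgrg1 has a mean of 0.57.

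Untreated samples averaged -0.80 ± 0.27 for Meis1, day 1 samples -0.16 ± 0.11, day 2 samples -0.32 ± 0.32 (SD, n = 4 each) and day 5 samples -0.75 ± 0.20 (SD, n = 3). From high to low its levels ran day 1, day 2, day 5, untreated. Day 1 and day 2 differed by less than the SD within these groups, as did day 5 and untreated, and the ranges of day 2 and day 5 overlapped.

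Untreated samples averaged 0.069 ± 0.33 for Adgrg1, day 1 samples 1.05 ± 0.31, day 2 samples 0.49 ± 0.21 (SD, n = 4 each) and day 5 samples 0.57 ± 0.22 (SD, n = 3). From high to low its levels ran day 1, day 5, day 2, untreated. Day 5 and day 2 differed by less than the SD within these groups. The ranges of each pair of neighbours in this order overlapped.

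At day 1 Meis1 was higher than in untreated samples by 0.64 ± 0.16 log2 units (SE from limma's fit), which is 1.56-fold, and Adgrg1 by 0.99 ± 0.18, which is 1.98-fold. Of the 6515 tested features, 97.1% had a day 1 difference at or below that of Meis1 and 98.8% at or below that of Adgrg1. Both genes had all day 1 samples above all untreated samples, as did 10.5% of tested features. The genes were chosen for this difference, so nothing is read from these shares.

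At day 2 the difference from untreated was 0.48 ± 0.16 (SE, 1.39-fold) for Meis1 and 0.42 ± 0.18 (SE, 1.34-fold) for Adgrg1. At day 5 it was 0.047 ± 0.18 (SE, 1.03-fold) for Meis1 and 0.50 ± 0.20 (SE, 1.41-fold) for Adgrg1. Meis1 thus stood near its untreated level at day 5, at the 56.6th percentile of all features' differences, and Adgrg1 at the 95.9th percentile. For neither gene were the samples of day 2 or day 5 all above the untreated ones. Among tested features, 11.2% had all day 2 samples and 6.63% all day 5 samples above all untreated ones. Whether Meis1 and Adgrg1 differ in their change by day 5 was not tested. The comparisons with untreated mice share the same 4 untreated samples. Without untreated replicate 4, the sample lowest for both genes, Adgrg1 had differences of 0.83, 0.26 and 0.34 on days 1, 2 and 5.

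Between the days after the drug, Meis1 was 0.16 ± 0.16 lower (SE, a difference of -0.16) at day 2 than at day 1, and Adgrg1 0.57 ± 0.18 lower (SE, a difference of -0.57). From day 1 the day 5 samples differed by -0.59 ± 0.18 (SE) for Meis1 and by -0.49 ± 0.20 (SE) for Adgrg1. Meis1 had all day 5 samples below all day 1 samples, as did 16.0% of tested features, while the Adgrg1 samples of the 2 days overlapped. From day 2 the day 5 samples differed by -0.43 ± 0.18 (SE) for Meis1 and by 0.078 ± 0.20 (SE) for Adgrg1.

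**Figure D2:**
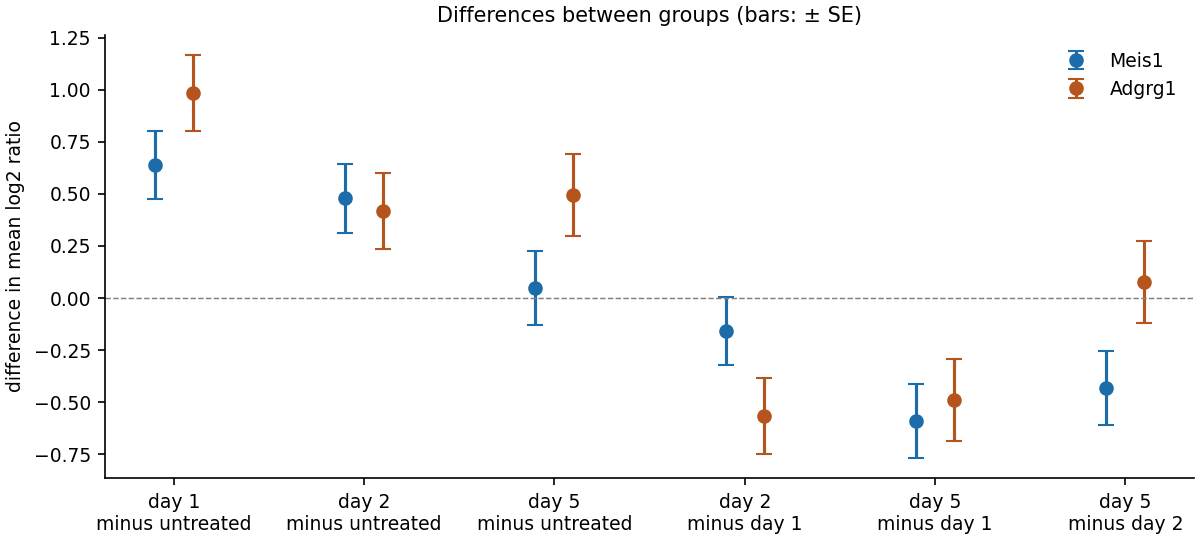
Difference in mean log2 ratio (vertical axis) between each pair of groups for Meis1 and Adgrg1, with bars of ± SE from limma's fit. Both genes lie above 0 at day 1 and day 2 minus untreated; at day 5 minus untreated Meis1 is at 0.047 and Adgrg1 at 0.50.

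Many other stem and progenitor genes lacked values in these samples, as did many features of the array. Of 50 genes listed for stem and progenitor cells, 35 besides Meis1 and Adgrg1 were on the array. Of these, 15 had enough values to be tested, against 6515 of all 13027 features. A further 10 had a value in at most 3 of the 15 samples, 2 of them in none. How many features had so few values was not counted. Kit, the stem cell factor receptor, had a value in 2 samples, Procr, a surface marker of mouse stem cells, in 1, and the transcription factors Gata2 and Lmo2 in 3 each. Hoxa9, a partner of Meis1, had a value in 4 samples and Runx1 and Tal1 in 10 each.

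Among the 15 other tested genes, none was called at day 1 in limma's test with Benjamini-Hochberg adjustment over all features (adjusted p under 0.05), where 4.60% of features were called, and 5 had an unadjusted p under 0.05, as did 1376 of the 6515 features. Their median difference at day 1 was 0.21, against 0.032 over all tested features, and 10 of 15 were positive. The largest were Slamf1, the surface marker CD150, with 1.27 ± 0.49 (SE, limma adjusted p = 0.146), and Angpt1, a ligand of the receptor Tek, with 0.67 ± 0.23 (SE, limma adjusted p = 0.114). Prom1, which encodes CD133, had a difference of -0.55 ± 0.23 (SE, limma adjusted p = 0.177).

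At day 2, 0 of these 15 genes were called in limma's test, against 12.7% of all features, and 2 had an unadjusted p under 0.05, as did 1740 of the 6515 features. Their median difference was 0.13, against 0.059 over all features. At day 5, 1 of the 15 was called, lower, where 0.829% of all features were called lower. It was Cxcr4, the chemokine receptor that holds stem cells in the marrow, which fell by 0.90 (difference -0.90 ± 0.20, SE, limma adjusted p = 0.0371). The call of Cxcr4 was lost in 12 of 25 alternative settings, with adjusted p up to 0.152. The list's median difference at day 5 was -0.087, against 0.0044 over all features.

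**Figure D3:**
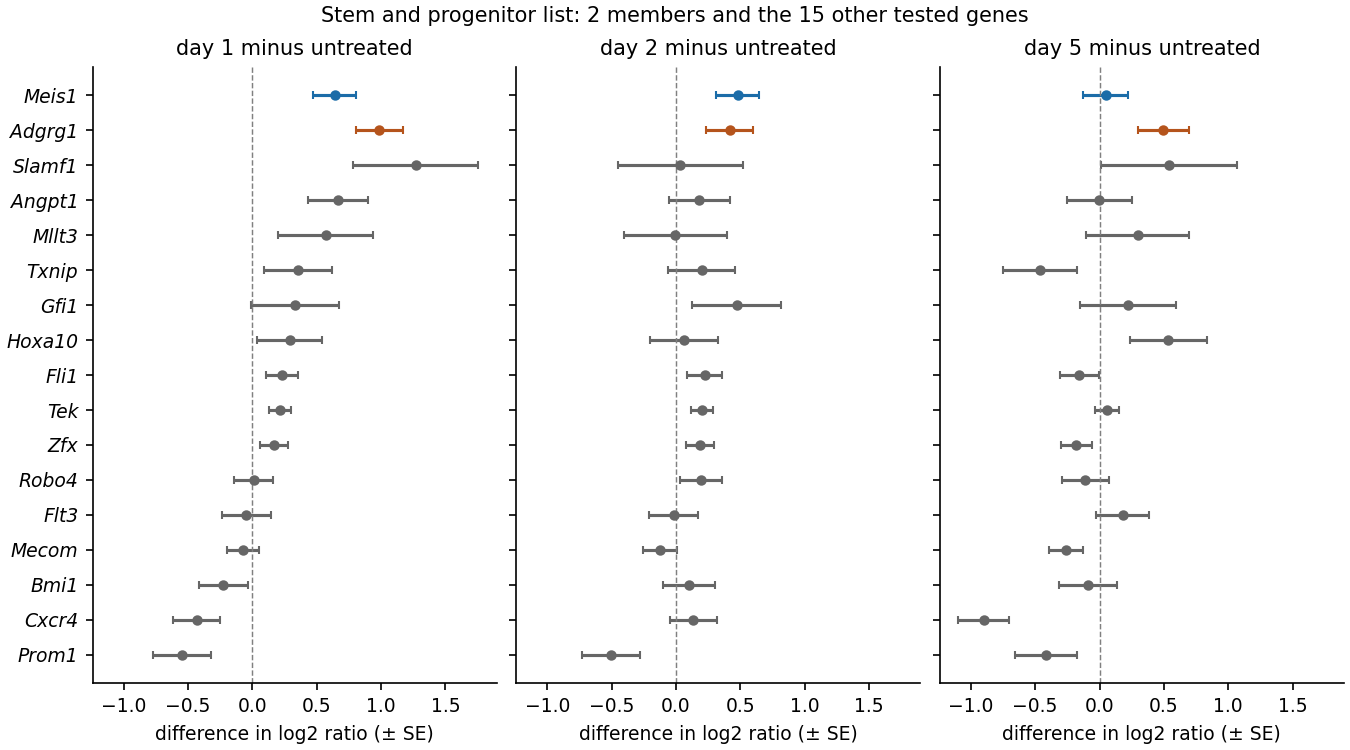
Difference in log2 ratio from untreated samples (horizontal axes, ± SE) at day 1, day 2 and day 5 for Meis1, Adgrg1 and the 15 other tested genes of the stem and progenitor list. The 15 genes scatter around 0 with medians of 0.21, 0.13 and -0.087, and Cxcr4 at day 5 is the only one called.

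Meis1 acts with Pbx and Hox proteins, and 11 of 29 such partners, relatives and regulators on the array were tested. At day 1 a single one was called higher, where 2.29% of all features were, and at day 2 again 1, where 4.83% were. Both times it was Kmt2a, the histone methyltransferase MLL1 that maintains Hox and Meis1 expression. Kmt2a averaged 0.15 at day 1 and -0.38 in untreated samples, and rose by 0.54 ± 0.13 (SE, limma adjusted p = 0.0374). At day 2 it averaged 0.12 and was higher by 0.50 ± 0.13 (SE, limma adjusted p = 0.0229), and at day 5 its difference was -0.43 ± 0.15 (SE, limma adjusted p = 0.172). The Kmt2a call was lost in 8 of 25 alternatives at day 1 and in 5 of 25 at day 2.

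The tested Hox genes and Pbx2, a DNA-binding partner of Meis1, were not called at any day against untreated samples. The largest differences among them were 0.54 ± 0.30 (SE, limma adjusted p = 0.377) for Hoxa10 at day 5 and 0.35 ± 0.13 (SE, limma adjusted p = 0.0966) for Hoxa2 at day 2. On days 1, 2 and 5 the list's median difference was 0.078, 0.023 and 0.036. Between days after the drug, Hoxa7 was 0.44 higher at day 5 than at day 1 (limma adjusted p = 0.0349), and Hoxa2 differed by -0.56 between day 5 and day 2 (limma adjusted p = 0.00858). Kmt2a was lower at day 5 than at day 1 and day 2, with differences of -0.96 and -0.93 (limma adjusted p = 0.00137 and 0.000247). No other listed gene was called between these days. In limma's test 5 and 4 of the 11 listed genes had an unadjusted p under 0.05 there, against 2222 and 2448 of 6515 features. How many features were called there is not given, so nothing is read from these calls about the list. Meis2 and Meis3, the closest relatives of Meis1, had too few values to be tested.

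Of 15 listed target genes of Meis1 on the array, 9 were tested. At day 1, 1 was called higher, where 2.29% of all features were, and at day 2, 2 were, where 4.83% of all features were. Hif1a, the oxygen-sensing transcription factor that Meis1 activates in mouse stem cells, averaged 1.79 at day 1 and 0.93 in untreated samples, and rose by 0.86 ± 0.20 (SE, limma adjusted p = 0.0307). At day 2 Hif1a averaged 1.82 and was higher by 0.89 ± 0.20 (SE, limma adjusted p = 0.00835). Its call was lost in 10 of 25 alternatives at day 1 and, with quantile normalization, in 1 of 25 at day 2. Syk, a tyrosine kinase of immune receptors, rose by 0.75 ± 0.15 at day 2 (SE, limma adjusted p = 0.00403), a call kept in all 25 alternatives. None of the 9 was called at day 5, where 1.09% of all features were.

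Flt3, a cytokine receptor of progenitors and a Meis1 target, differed by -0.049 ± 0.19 at day 1 (SE, limma adjusted p = 0.914) and by -0.019 ± 0.19 at day 2 (SE, limma adjusted p = 0.963). On days 1, 2 and 5 the targets' median difference was 0.10, 0.065 and -0.24. Pf4, platelet factor 4, is both a Meis1 target and a platelet gene, with a difference of 1.71 ± 0.61 at day 1 (SE, limma adjusted p = 0.116).

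Of 15 genes on the array that encode ligands, partners or signal carriers of Adgrg1, 7 were tested. Cd81, a tetraspanin that associates with the receptor at the cell surface, averaged 1.78 at day 1 and 0.18 in untreated samples. It rose by 1.60 ± 0.25 (SE, limma adjusted p = 0.00507) and kept its call in all 25 alternatives. At day 2 and day 5 Cd81 had differences of 0.43 ± 0.25 and 0.22 ± 0.27 (SE, limma adjusted p = 0.302 and 0.731). Gnai3, an inhibitory G protein subunit, rose by 0.56 ± 0.17 at day 2 (SE, limma adjusted p = 0.0396), a call lost in 11 of 25 alternatives.

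The G proteins that carry the signal of Adgrg1 to RhoA were not called. At day 1, Gna12 had a difference of -0.18 ± 0.17 (SE, limma adjusted p = 0.592) and Gna13 one of 0.13 ± 0.14 (SE, limma adjusted p = 0.656). On days 1, 2 and 5 the 7 genes' median difference was -0.014, 0.0029 and 0.17. Cd9, another tetraspanin partner, Col3a1, the collagen ligand, and Rhoa itself had too few values to be tested.

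Of 26 other adhesion G protein-coupled receptors listed, 4 were on the array, and all 4 were tested. Adgre1, a macrophage surface antigen, fell by 0.67 at day 1 (difference -0.67 ± 0.18, SE, limma adjusted p = 0.0429) and by 1.20 at day 2 (difference -1.20 ± 0.18, SE, limma adjusted p = 0.000302). Celsr1, a planar cell polarity receptor, rose by 0.34 ± 0.089 at day 1 (SE, limma adjusted p = 0.0429). The day 1 calls of Adgre1 and Celsr1 were lost in 12 and 13 of 25 alternatives, and the day 2 call of Adgre1 in none. Adgre5, the leukocyte antigen CD97, had a difference of 0.43 ± 0.23 at day 1 and of -0.85 ± 0.24 at day 5 (SE, limma adjusted p = 0.299 and 0.111).

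Several platelet transcripts were higher at day 1 together with Meis1 and Adgrg1. Of 32 listed platelet and megakaryocyte genes, 24 were on the array, 9 were tested and 4 of them rose at day 1, where 2.29% of all features did; all 9 differences were positive, with a median of 1.33. They were Treml1, a receptor of platelet granules (1.96), Clu, the granule protein clusterin (1.70), Itga2b, the fibrinogen receptor chain (1.37), and F2rl2, a thrombin receptor (1.33). Their limma adjusted p = 0.0159, 0.0223, 0.0133 and 0.0250. At day 2 none was called by limma and 3 had an unadjusted p under 0.05, against the 1740 of 6515 features given above, with a median difference of 0.61. At day 5, 1 rose, where 0.261% of all features did: F2rl2 (1.42, limma adjusted p = 0.0479), with a median of 0.91 over the list. That call of F2rl2 was lost in 18 of 25 alternatives, with adjusted p up to 0.166. Gp1bb, Nfe2, P2ry12 and Rgs18 had no value in any sample.

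The mean log2 ratio over the 9 tested platelet genes lay between 1.03 and 1.37 in untreated samples, between 2.22 and 2.51 at day 1, between 1.51 and 2.18 at day 2 and between 1.51 and 2.68 at day 5. By these means all samples of each day after the drug were above all untreated ones. At day 1 the same held for the stem and progenitor list, with means of 0.24 to 0.49 against 0.18 to 0.23 in untreated samples. It also held at day 1 for the Meis1 target list (0.50 to 0.67 against 0.29 to 0.46) and the Adgrg1 signalling list (0.069 to 0.099 against -0.27 to 0.061). A list mean covers only the genes with a value in that sample. For the platelet list, the means of day 2 replicate 1 (1.51) and day 5 replicate 3 (2.68) rest on 8 of the 9 genes. How the missing gene would move them was not tested. The lowest untreated sample for the platelet list was replicate 4, which was also lowest for Meis1 and for Adgrg1. At day 1 the orders differed in part: replicate 3 was highest for the platelet list and for Meis1 but lowest for Adgrg1. Replicate 4 was lowest for the platelet list and the next to highest for Adgrg1, and replicate 1 next to highest for the list and highest for Adgrg1. At day 2 replicate 1 was lowest and replicate 3 highest for both the platelet list and Adgrg1. At day 5 replicate 2 was lowest and replicate 3 highest for both of these. The stem and progenitor list and Meis1 had the same order at day 2, from high to low replicates 3, 1, 4 and 2. They also shared the order at day 5, replicates 3, 2 and 1. At day 1 and in untreated samples their orders differed, and untreated replicate 4 was highest for that list. Its mean in day 2 replicate 1 rests on 9 of its 15 tested genes. Over the 15 samples the platelet list's mean level had a Pearson's r of 0.821 with Adgrg1 and 0.589 with Meis1. The stem and progenitor list had 0.317 and 0.716, and the Adgrg1 signalling list 0.827 and 0.404. For the Meis1 partner list r was 0.630 and 0.584, for the Meis1 target list 0.532 and 0.644, and for the monocyte list -0.377 and -0.648. The remaining lists had r between -0.456 and 0.409. The 2 genes were chosen on these samples, so nothing is read from these r. In bulk blood, more cells of a type and more RNA per cell cannot be told apart, and the part of platelets in the values of Meis1 and Adgrg1 was not tested.

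The platelet calls at day 1 depended on the processing: those of Treml1, Clu, Itga2b and F2rl2 were lost in 3, 5, 2 and 7 of 25 alternatives. With quantile normalization of the columns the difference was 0.27 for Clu (limma adjusted p = 0.642), 0.58 for Itga2b (limma adjusted p = 0.217) and 1.22 for Treml1 (limma adjusted p = 0.0613), and F2rl2 alone was called, with 0.98 (limma adjusted p = 0.0343). Without day 1 replicate 2 none of the 9 was called, with limma adjusted p between 0.0537 and 0.0903 for the 4 genes. Their differences were then 1.93, 1.68, 1.24 and 1.22, against 1.96, 1.70, 1.37 and 1.33 with all samples. Over all features, 60 were called at day 1 without day 1 replicate 2 and 462 with quantile normalization, against 300 of 6515 in the main fit. Meis1 and Adgrg1 have no calls to set beside these, since they were not tested. Their day 1 differences were 0.64 and 0.99 in the main fit, and 0.67 and 0.95 with quantile normalization. Without day 1 replicate 2 they were 0.67 and 0.99.

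**Figure D4:**
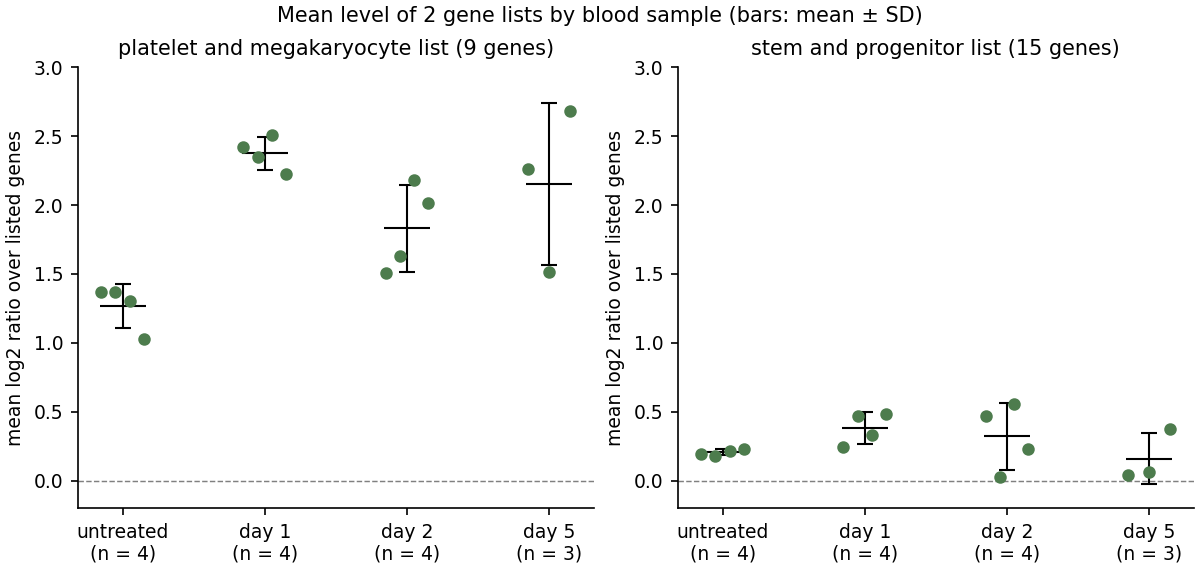
Mean log2 ratio over the 9 tested platelet and megakaryocyte genes and over the 15 other tested stem and progenitor genes (vertical axes) in each blood sample, with bars of mean ± SD. Each mean covers only the genes with a value in that sample, so the genes differ between samples. In day 2 replicate 1 these were 9 of the 15 stem and progenitor genes and 8 of the 9 platelet genes. The platelet means at day 1, between 2.22 and 2.51, are above all untreated samples. The stem and progenitor means at day 1, between 0.24 and 0.49, are also above all untreated ones, between 0.18 and 0.23. Over all groups the stem and progenitor means lie between 0.027 and 0.56.

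Markers of other blood and vessel cell types were compared in the same way. Of the natural killer and cytotoxic cell list, 8 genes were tested and 1 rose at day 1, where 2.29% of all features did: Tbx21, a transcription factor of cytotoxic and helper lymphocytes (0.42, limma adjusted p = 0.0436), and the median was -0.18. Its mean level lay between 0.33 and 0.67 at day 1 and between 0.43 and 0.99 in untreated samples. At day 2, 3 of the 8 fell, where 7.84% of all features did: Nkg7, a granule protein (difference -0.69), Klrd1, the receptor CD94 (difference -0.57), and Gzmk, a granzyme (difference -0.84), with limma adjusted p = 0.00283, 0.0485 and 0.0447. At day 5, 2 fell, where 0.829% of all features did, Nkg7 (difference -1.13) and Klrd1 (difference -1.08), with limma adjusted p = 0.000832 and 0.0109. At day 5 the list's mean level lay between 0.024 and 0.14.

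Of 12 tested endothelial genes 2 rose at day 1, where 2.29% of all features did, and 4 of the 12 differences were positive. The 2 were Kdr, a VEGF receptor (0.97, limma adjusted p = 0.0327), and Plvap, a protein of vessel wall diaphragms (0.88, limma adjusted p = 0.0417), and the list's median was -0.050. Flt1, another VEGF receptor, had a difference of -0.50 at day 1 (limma adjusted p = 0.0766) and fell by 1.13 at day 2 (limma adjusted p = 0.000185). The endothelial mean level was between -0.017 and 0.11 at day 1 and between -0.098 and -0.0049 in untreated samples. Of 7 tested monocyte genes 3 fell at day 1 and 5 at day 2, where 2.32% and 7.84% of all features did. Of 11 tested mature neutrophil genes 7 rose at day 2, where 4.83% of all features did, and their mean level lay between 0.54 and 1.03 at day 2 and between -0.51 and -0.048 in untreated samples. At day 1 limma called 0 of 9 tested erythroid genes (3 with an unadjusted p under 0.05) and 0 of 5 T cell genes (1 with an unadjusted p under 0.05). It called 1 of 9 B cell genes, lower, where 2.32% of all features were. Of the 6515 features, 1376 had an unadjusted p under 0.05. The erythroid, T cell and B cell medians were -0.044, 0.40 and -0.096, against 0.032 over all features, with 4 of 9, 4 of 5 and 3 of 9 differences positive. The part of these cell types in the values of Meis1 and Adgrg1 was not tested. The 5 tested general leukocyte genes had a mean level between 0.23 and 1.05 over all samples, while Ptprc, the leukocyte antigen CD45, had too few values to be tested.

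Genes with the most similar course were ranked by Pearson's r over the 15 samples among 3560 other genes with a symbol and a value in every sample. They were picked for their likeness, and all values share the same arrays and reference. For Meis1 they were Prr13 (r = 0.935), Med25, a subunit of the Mediator complex (r = 0.904), 1810055G02Rik (r = 0.892), F8, coagulation factor VIII (r = 0.892), and Elf4, an ETS family transcription factor (r = 0.886). Each was higher on average at day 1 and day 2 and had a mean at day 5 within 0.15 of its untreated mean. With group means removed, r lay between 0.706 and 0.882.

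For Adgrg1 the most similar genes were Hacd4, an enzyme of fatty acid elongation (r = 0.953), Trappc2, a subunit of a vesicle tethering complex (r = 0.925), Clcn3, a chloride transporter (r = 0.919), Pnpla8, a phospholipase (r = 0.906), and Gatad1, a zinc finger protein (r = 0.902). Hacd4 averaged 1.13 before the drug, then 2.69, 1.92 and 1.90 on days 1, 2 and 5. All 5 had their highest mean at day 1 and means at day 5 that were between 0.40 and 0.92 above the untreated mean. With group means removed, r lay between 0.728 and 0.849. No gene was among the 5 of both Meis1 and Adgrg1.

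**Figure D5:**
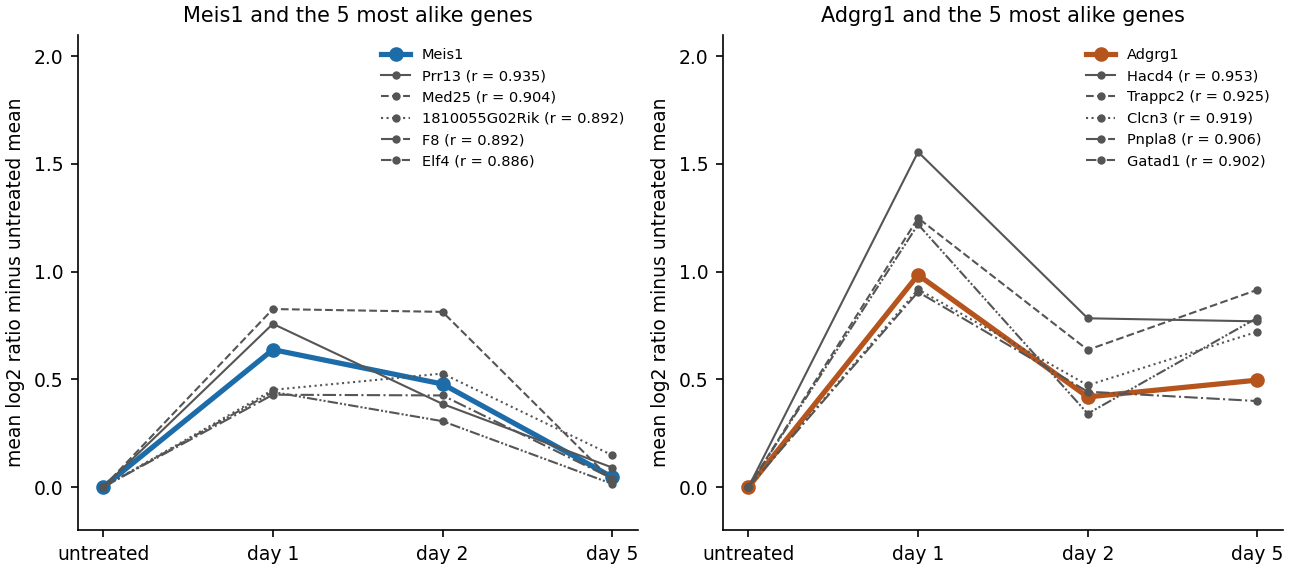
Mean log2 ratio minus the untreated mean (vertical axis) for Meis1 and Adgrg1, each with the 5 genes of highest Pearson r over 15 samples. The genes alike to Meis1 are back near 0 at day 5, and those alike to Adgrg1 stay between 0.40 and 0.92 above the untreated mean.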

How the data were processed

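The authors deposited a table of log ratios, taken here as log2 values, with blood in Cy5 and marrow in Cy3 per the labels. The labels name no background correction, normalization or filter. Base 10 does not suit the highest value, 5.76, since log10 of a scanner's usual maximum is 4.82, while a natural logarithm is not excluded. Column medians between -0.0028 and 0.025 show that the columns were centred. The 2 technical replicates of each of 15 samples were averaged, and probes of 1 symbol were averaged (10032 probes had 1 symbol, 170 several and 3241 none), giving 13027 features. Features were tested if at least 3 samples of each group (2 at day 5) had a value, 6515 in all, with limma 3.58.1 in R 4.3.3, 1 mean per group over all samples, and Benjamini-Hochberg adjustment. The procedure was tested on simulated data. The replicates were harvested independently per the series text, and whether each came from 1 mouse is not given. The p-values set a difference between groups against the spread between these samples. Same-numbered samples of different groups did not deviate together (r between -0.284 and 0.171 over 21 pairs), so they were not paired. Genes were named by a fixed rule: Meis1 and Adgrg1, genes called or largest in change in their pathway lists, up to 4 called genes per marker list, and the 5 most alike genes of each; others named in the text were chosen after their values were seen. The genes and lists were chosen with earlier results of these data known. Of the tested genes, Fli1, Tek, Robo4, Flt3, Mecom, Hoxa10, Pf4 and Adgre1 stand in more than 1 list. Alternatives were another normalization, single technical replicates, the sample as a random effect, other filters, a replicate block, another prior, fits of 2 groups, single probes and leaving out each sample.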

Additional observations from a re-analysis of the deposited data

Results flagged for a closer look

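Of 114 groups of 4 samples examined, 5 held a sample whose gap to its nearest neighbour took more than 0.829 of the group's range (Dixon's critical value), and chance gives about 1 in 20. Neither Meis1 nor Adgrg1 was among them. The mean level of the monocyte list was 0.42 in untreated replicate 2, the lowest of its group, from 6 of the 7 tested genes. Adgre1 was lowest in 1 day 2 sample, at -0.40. Clcn3, one of the genes alike to Adgrg1, was lowest in 1 untreated sample, at -0.22. Clu was lowest in 1 day 2 sample, at 2.82, against a group mean of 4.07. Cxcr4 was highest in 1 day 1 sample, at 0.63. All are log2 ratios of blood over marrow, and their causes were not tested.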

How the results depend on the processing

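The differences of Meis1 and Adgrg1 from untreated samples moved by less than the SD between replicates in all 10 other settings and 15 fits without 1 sample. Over the 10 settings Meis1 lay between 0.63 and 0.67 at day 1, between 0.44 and 0.54 at day 2 and between -0.020 and 0.12 at day 5, and Adgrg1 between 0.94 and 1.03, between 0.39 and 0.45 and between 0.44 and 0.54. Leaving out 1 sample gave 0.55 to 0.74, 0.36 to 0.60 and -0.060 to 0.15 for Meis1, and 0.83 to 1.13, 0.26 to 0.52 and 0.34 to 0.62 for Adgrg1, whose 3 lowest values came without untreated replicate 4; at day 2 that value, 0.26, is over 1.5 times below 0.42. The count of features called at day 1 was 462 with quantile normalization, 715 with the sample as a random effect, 578 with only the 2 groups compared and 131 with the replicate block, and 60 to 438 without 1 sample (60 without day 1 replicate 2). At day 5 it was 111 with quantile normalization, 407 with the random effect, 116 with complete features and 34 with only the 2 groups, and 27 to 224 without 1 sample. At day 2 it was 529 to 942 without 1 sample. Same-numbered samples were not paired by the labels or the data, so the block is only an alternative. With the replicate block, 0 genes were called among the Meis1 partners, Meis1 targets and adhesion receptors at day 1, the Adgrg1 signalling genes at day 2, and the stem and platelet genes at day 5. With the random effect, calls numbered 4 for Meis1 targets, 6 for platelet and 2 for stem genes at day 1, 2 for adhesion receptors, Adgrg1 signalling genes, Meis1 partners and platelet genes at day 2, and 1 for each of Adgrg1 signalling genes, Meis1 partners and Meis1 targets and 3 for platelet genes at day 5. With quantile normalization they numbered 1 for adhesion receptors, stem and platelet genes at day 1, 2 for adhesion receptors and Meis1 partners at day 2 and 1 for adhesion receptors at day 5. With only the 2 groups compared they numbered 1 for adhesion receptors, 2 for stem genes and 3 for Meis1 targets at day 1, 2 for adhesion receptors at day 2 and 0 for stem and platelet genes at day 5. Without the filter, 0 were called for adhesion receptors and Meis1 partners at day 1, Adgrg1 signalling genes at day 2 and platelet genes at day 5. Adhesion receptors numbered 0 at day 1 with technical replicate 1 and 1 with replicate 2 alone, and 2 at day 2 with complete features. Technical replicate 1 alone left 0 platelet genes at day 5, and replicate 2 alone 0 Meis1 targets at day 1 and 0 Adgrg1 signalling genes at day 2. The robust prior left 0 Meis1 targets at day 1 and 0 platelet genes at day 5, and single probes 0 stem genes at day 5. Without 1 sample, calls at day 1 ranged over 0 to 2 for adhesion receptors, 0 to 1 for Meis1 partners and for targets, and 0 to 4 for platelet genes. At day 2 they ranged over 0 to 1 for Adgrg1 signalling, stem genes and Meis1 partners, 1 to 2 for adhesion receptors and 0 to 2 for platelet genes, and at day 5 over 0 to 1 for stem genes, adhesion receptors, Meis1 partners and targets and 0 to 3 for platelet genes. The cause of these shifts was not tested.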
